A study of Mus musculus with 12 samples.

Results

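Mouse embryonic stem cells that had been aggregated into embryoid bodies (EB) were compared at day 4 with embryoid bodies at day 3 of differentiation. The comparison takes the 2 arrays labelled EB day 4 and the 2 arrays labelled EB day 3 out of 12 arrays in the series, chosen by their sample labels alone, and every non-control probe was used. The EB day 4 group and the EB day 3 group both consist of total RNA from strain 129 embryonic stem cells differentiated as embryoid bodies, for 4 and 3 days, with no mutation, transgene or added agent named in the labels of either. In each group, array 1 is labelled clone 1 and array 2 is labelled clone 2, and the submitters state that the replicate experiments were independent and performed by different people. The other 8 arrays are undifferentiated cells, EB day 1, and monolayer cultures at days 1 and 3, with 2 arrays each, and they enter below through the shared estimate of spread and as further conditions. No label says whether a clone is a cell clone or a culture, or what medium was used, so p-values measure the spread between arrays, which may be partly technical.

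An embryoid body is a floating aggregate in which stem cells leave pluripotency and form mixtures of early embryonic cell types without the spatial order of an embryo. In the mouse embryo, the epiblast first depends on Nodal, FGF and Wnt signals to form the primitive streak, from which cells pass through an epithelial to mesenchymal transition into mesoderm and endoderm. Mesoderm that leaves the streak under high BMP becomes lateral plate and extraembryonic mesoderm, the source of heart, blood and vessels. An array reads the average of all cells in the aggregate, so that a larger share of cells of a type and more RNA per cell of that type cannot be told apart.

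Values are log2 spot signals relative to the array's own 75th percentile, and a change is EB day 4 minus EB day 3 in log2 units, given ± its standard error from limma with 2 arrays in each group. A gene was called when its Benjamini-Hochberg adjusted p over all 17523 genes tested was under 0.05. The EB day 4 arrays were hybridised on another slide, scanned on another scan day and with another scanner than the EB day 3 arrays, so the stage and these technical steps cannot be told apart. The 75th percentile of the raw signal was 393 and 326 intensity units in EB day 4, against 596 and 538 in EB day 3, and 53.8% and 52.1% of spots were well above background in EB day 4, against 60.2% and 59.5% in EB day 3. Of 10 spike-in control probes, which report RNA added in fixed amounts, 2 were higher in EB day 4, and their median difference was -1.67. The 2 arrays of a group correlated across genes at 0.990 in EB day 4 and 0.985 in EB day 3.

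Between the 2 stages 2237 genes were called, 12.8% of those tested, of which 683 were higher in EB day 4 (3.90%) and 1554 lower (8.87%). The median change over all genes was -0.09. At an unadjusted p under 0.05 limma gave 5256 of the 17523 genes. The split between higher and lower depended on the background correction: with a model-based correction (normexp), 1694 genes were called higher and 1202 lower, the median over all genes became 0.11, and 1330 of the 2237 calls were shared, every one of them in the same direction. The number of calls was 855 without EB day 4 array 1, 564 without EB day 4 array 2, 345 without EB day 3 array 1 and 1616 without EB day 3 array 2. Some genes are read by 2 or more probes, which give separate readings on the same arrays: of 6252 such genes, 245 were called by at least 2 probes in 1 direction and by none in the other (3.92%), 82 of them higher (1.31%) and 163 lower (2.61%).

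The marker genes of the comparison were the transcription factor Isl1, which marks cardiac and other mesodermal progenitors, the secreted lectin Colec11, the pluripotency and neural transcription factor Sox2, and Nodal, the TGF-beta family ligand of the early epiblast. Isl1 was at 0.07 and 0.68 in EB day 4, against -4.68 and -2.63 in EB day 3. Colec11 was at -2.21 and 0.20 in EB day 4, against -6.26 and -6.64 in EB day 3. The stages did not overlap for either gene, as in 67.9% of all genes tested, and array 2 was the higher one within EB day 4. Isl1 rose by 4.03 ± 0.55 (adjusted p = 0.00438), and the change lay between 3.00 and 5.05 when any 1 of the 4 arrays was left out. The scanner files mark Colec11 as not well above background on both EB day 3 arrays, which is called dim from here on, so its rise is a bound. Measured against the weakest detected signal of each EB day 3 array, or the probe's own where that was higher, Colec11 was at least 39.7-fold higher at EB day 4 (adjusted p = 0.00501). That bound holds for the main processing: over 16 alternative settings the smallest change of Colec11 was 2.37. Sox2 was at -1.23 and -0.64 in EB day 4, against 2.65 and 1.56 in EB day 3. Nodal was at 1.31 and 0.92 in EB day 4, against 3.86 and 2.86 in EB day 3. Every EB day 4 value lay below every EB day 3 value for both. Sox2 fell by 3.04 ± 0.35 (adjusted p = 0.00245) and Nodal fell by 2.25 ± 0.33 (adjusted p = 0.00583). Each of the 4 genes is read by 1 usable probe, and all 4 stayed called when any 1 array was left out, although in a fit of the 4 EB day 4 and day 3 arrays alone their adjusted p-values were between 0.0509 and 0.0595.

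**Figure D1:**
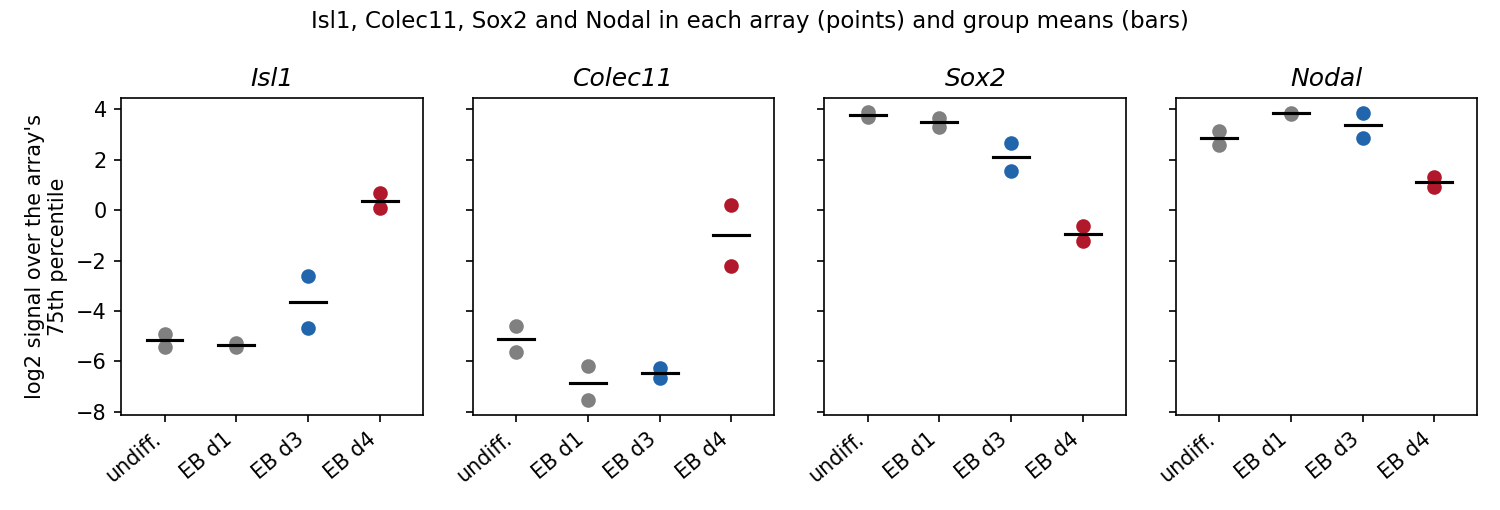
Log2 signal relative to the array's 75th percentile (vertical axis) of 4 genes in undifferentiated cells and EB days 1, 3 and 4, with 1 point per array and a bar at the mean of 2 arrays. Isl1 and Colec11 stand higher at EB day 4 than in the earlier stages, and Sox2 and Nodal stand lower.

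Genes of cardiac and lateral plate mesoderm rose in many members. Of the list's 27 tested members 11 were called higher and none was called or reached an unadjusted p under 0.05 in the other direction by limma, against the 3.90% called higher among all genes, and the median change was 1.94. A further member was too dim to test. Hand1, a bHLH factor of lateral plate and extraembryonic mesoderm, was at 3.27 and 3.60 in EB day 4, against -3.00 and 0.96 in EB day 3. The forkhead factor Foxf1 of splanchnic mesoderm was at -1.79 and -1.63 in EB day 4, against -7.52 and -3.99 in EB day 3. In both genes the EB day 4 arrays nearly coincided, whereas the EB day 3 arrays lay several log2 units apart, with array 2 the higher one. Hand1 changed by 4.45 ± 1.08 (adjusted p = 0.0302) and Foxf1 by 4.05 ± 0.86 (adjusted p = 0.0196). Smarcd3, the heart-enriched subunit of the BAF chromatin remodelling complex, was at 1.09 and 2.06 in EB day 4, against -2.89 and -1.27 in EB day 3. It changed by 3.66 ± 0.50 (adjusted p = 0.00438). Of the T-box factors on the list, Tbx20 was at -1.35 and -0.68 in EB day 4, against -4.97 and -3.08 in EB day 3, with both of its probes called (3.01 for the brighter one), Tbx2 changed by 2.92 ± 0.42 and Tbx3 by 3.19 ± 0.87. The growth factor Bmp4 changed by 2.97 ± 0.72, the mesenchymal homeobox gene Prrx1 by 2.43 ± 0.62 and Nkx2-5, a homeobox gene of cardiac progenitors, by 1.94 ± 0.50. Meis1, a homeobox partner of Hox proteins, was dim in EB day 3 and at least 6.68-fold higher at EB day 4. The other 16 members were not called. Among them were the cardiac T-box factor Tbx5 (2.07 ± 1.13, adjusted p = 0.253), Hand2 (3.00 ± 1.01, adjusted p = 0.0804), whose other probe was called higher (2.70, adjusted p = 0.0414) and which was called with normexp (1.45), Kdr, the VEGF receptor of early mesoderm (1.90, adjusted p = 0.22), and the endoderm and cardiac GATA factors Gata4 (0.63) and Gata6 (0.57). Tbx5 was also called higher with normexp (1.01, adjusted p = 0.0207). Of the 11 calls, 4 were kept without EB day 4 array 1, 3 without EB day 4 array 2, 4 without EB day 3 array 1 and 10 without EB day 3 array 2. In 23 of the 27 genes the EB day 4 mean was above the means of all the other 5 groups, as it was in 23.6% of all genes.

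Contractile genes split. Of 18 tested sarcomere and smooth muscle genes, 5 were called higher and 4 lower, against 3.90% and 8.87% of all genes, and the median was -0.55. The thin filament regulators of the embryonic heart were among those that rose: Tnni1, troponin I of slow and embryonic muscle, was at -1.09 and 0.24 in EB day 4, against -4.38 and -3.03 in EB day 3, with 2 of 2 probes called, and Tnnt2, cardiac troponin T, was at -2.61 and -1.64 in EB day 4, against -5.60 and -4.77 in EB day 3. Neither gene overlapped between the stages, and the changes were 3.28 ± 0.53 (adjusted p = 0.00763) and 3.06 ± 0.50 (adjusted p = 0.00792). Myh7, a myosin heavy chain of embryonic heart, rose by 2.49 ± 0.35 with 2 of 2 probes called, Tnnc1 rose by 2.47 ± 0.70 and Myl2 by 1.35 ± 0.30. Tagln, an actin-binding protein of smooth muscle, fell by 1.21 and the smooth muscle actin Actg2 fell by 0.88, a call lost with normexp (-0.56). The cardiac atrial peptide gene Nppa was also called lower: it was dim in EB day 4 and at least 1.56-fold lower there, but with normexp it changed by 0.32 and was not called. With normexp the list's median was 0.29, opposite in sign to the main value. Of the 9 calls, 3 were kept without EB day 4 array 1, 3 without EB day 4 array 2, 1 without EB day 3 array 1 and 4 without EB day 3 array 2.

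**Figure D2:**
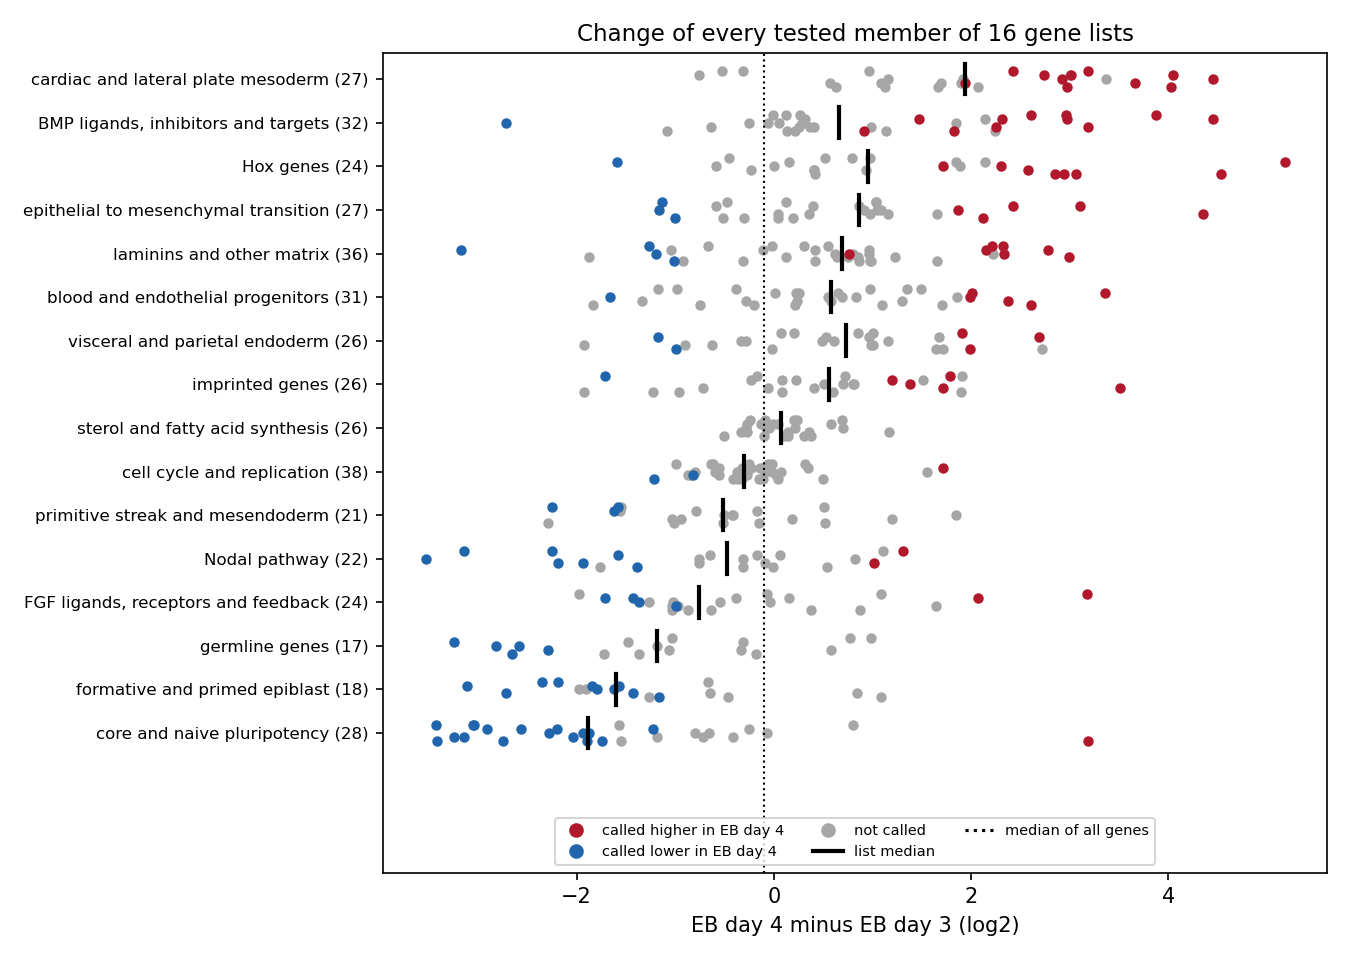
Change of each tested gene (points) in 16 gene lists, with the number of tested genes in brackets, the list median as a bar and the median of all genes as a dotted line. Cardiac and lateral plate mesoderm has its median at 1.94, and core and naive pluripotency has its median at -1.89.

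Members of the BMP pathway rose among its ligands, receptors, inhibitors and targets. Of 32 tested, 11 were called higher and 1 lower, against 3.90% and 8.87% of all genes, with a median of 0.66. Among ligands, Bmp4 was at 2.38 and 2.87 in EB day 4, against -1.55 and 0.86 in EB day 3 (adjusted p = 0.0294), and Bmp5 was at -1.74 and -0.71 in EB day 4, against -7.20 and -3.00 in EB day 3. Bmp6 changed by 1.82 ± 0.42. Array 2 of EB day 3 was again closer to EB day 4 than array 1 for Bmp4 and Bmp5. Acvr1, a type I BMP receptor, changed by 0.91 ± 0.22. Among the feedback inhibitors that BMP itself induces, Bambi, a pseudoreceptor, was at 4.06 and 4.41 in EB day 4, against 1.56 and 2.42 in EB day 3. It changed by 2.25 ± 0.29 (adjusted p = 0.00367), and the inhibitory Smad6 changed by 2.32 ± 0.60. The BMP target homeobox genes Msx2 and Msx1 changed by 2.96 ± 0.80 and 1.47 ± 0.32, with 2 of 2 Msx1 probes called, and Gata2 by 2.60 ± 0.60, also by 2 of 2 probes. Id1, another direct target, was at 4.35 and 4.32 in EB day 4, against 3.93 and 4.48 in EB day 3, and was not called (adjusted p = 0.848). Bmp8b, a germ cell-related ligand, was the 1 gene called lower: it was dim in EB day 4 and at least 3.76-fold lower there, but with normexp it changed by -0.24 (adjusted p = 0.42) and was not called. Of the 12 calls, 2 were kept without EB day 4 array 1, 2 without EB day 4 array 2, 2 without EB day 3 array 1 and 11 without EB day 3 array 2.

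Hox genes, which are switched on in order along the clusters as mesoderm is laid down, were tested for 24 of 39 members, the others being too dim in every group or, for 1, not found on the array. Of these 8 were called higher and 1 lower, against 3.90% and 8.87% of all genes, with a median of 0.95. Hoxb2 was at 2.30 and 2.71 in EB day 4, against -4.32 and 0.26 in EB day 3, its EB day 3 arrays far apart, and both of its probes were called (4.54 ± 1.25 for the brighter one, adjusted p = 0.0452). Hoxb5 was at -2.64 and -0.18 in EB day 4, against -7.21 and -5.97 in EB day 3, was dim in EB day 3 and at least 23.7-fold higher at EB day 4. Hoxd1 changed by 3.06 ± 0.62 and Hoxb7 by 2.85 ± 0.49, whereas Hoxb4 and Hoxb9, dim in EB day 3, were at least 4.13-fold and at least 4.86-fold higher. These bounds hold for the main processing. Over the alternative settings the smallest changes were 2.15 for Hoxb5, 0.84 for Hoxb4 and 0.90 for Hoxb9. Hoxd3 was also called, but was dim in both stages, so no fold is given. Hoxb1, the earliest gene of its cluster in the embryo, was at 0.14 and -0.54 in EB day 4, against -3.02 and -1.09 in EB day 3, and was not called (adjusted p = 0.248). With normexp Hoxb1 was called higher (1.39, adjusted p = 0.033). Hoxc5 was called lower, at least 3.01-fold, and was dim in EB day 4, and with normexp it changed by -0.39 and was not called. The median of the list was 1.78 when all kept probes of a gene were averaged. Of the 9 calls, 5 were kept without EB day 4 array 1, 0 without EB day 4 array 2 (where limma still gave all 9 an unadjusted p under 0.05), 1 without EB day 3 array 1 and 7 without EB day 3 array 2.

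Nodal pathway genes fell on the ligand and antagonist side. Of 22 tested, 7 were called lower and 2 higher, against 8.87% and 3.90% of all genes, with a median of -0.48. Lefty1, a secreted Nodal antagonist that Nodal itself induces, was at -0.60 and -0.26 in EB day 4, against 4.46 and 1.74 in EB day 3. The 2 EB day 3 arrays differed by more than 2 log2 units, and both lay above EB day 4. Lefty1 fell by 3.53 ± 0.68 (adjusted p = 0.014) and Lefty2 by 1.58 ± 0.36 (adjusted p = 0.0259). The TGF-beta family ligand Gdf3 was at -4.22 and -3.21 in EB day 4, against 0.21 and -1.37 in EB day 3 and the co-receptor Tdgf1 (Cripto) at 1.34 and 0.49 in EB day 4, against 2.85 and 2.86 in EB day 3, without overlap of the stages (adjusted p = 0.0105 and 0.02). The activin-binding protein Fst fell by 2.19 and Pcsk6, a convertase that cleaves Nodal, by 1.39. The members that rose were Cfc1 (Cryptic), another Nodal co-receptor (1.30 ± 0.31), and the type II receptor Acvr2a (1.02 ± 0.26). The intracellular members Smad2 (0.06), Smad3 (1.11) and Foxh1 (-0.31) were not called, although Smad3 was called higher with normexp (1.23, adjusted p = 0.015). Of the 9 calls, 4 were kept without EB day 4 array 1, 2 without EB day 4 array 2, 2 without EB day 3 array 1 and 8 without EB day 3 array 2.

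Of 21 primitive streak genes tested, 3 were called lower (Nodal, Lefty2 and Nkx1-2), against 8.87% of all genes, with a median of -0.51. Nkx1-2 was dim in EB day 4 and at least 2.51-fold lower, but with normexp it changed by -0.20 and was not called. Over the 21 genes limma gave 7 lower and 1 higher at an unadjusted p under 0.05, against 5256 of all 17523 genes in either direction. Brachyury (T), the T-box factor of the streak, was at 2.11 and 1.23 in EB day 4, against 2.00 and 2.20 in EB day 3. Mixl1, a homeobox factor of mesendoderm, was at -0.21 and -1.29 in EB day 4, against -0.02 and -0.48 in EB day 3. The stages overlapped for both genes. Eomes was at 2.38 and 0.98 in EB day 4, against 3.26 and 3.20 in EB day 3. Gsc, the organiser homeobox gene, was at 2.85 and 2.12 in EB day 4, against 4.28 and 3.80 in EB day 3. Both lay lower in each EB day 4 array than in each EB day 3 array, but neither was called (changes of -1.55 and -1.56, adjusted p = 0.115 and 0.115). The streak ligands Fgf8 (-1.04 ± 0.46 in its brighter probe), Wnt3 (-0.79 ± 0.44) and Wnt3a (0.51 ± 0.59), the LIM homeobox gene Lhx1 (-1.01 ± 0.56) and the Wnt inhibitor Dkk1 (0.98 ± 0.59) were not called (adjusted p between 0.166 and 0.602), although the dimmer of the 2 Fgf8 probes was called lower (-1.79, adjusted p = 0.0416). Mesp1, the factor of the earliest cardiac mesoderm, was at 5.40 and 4.86 in EB day 4, against 2.89 and 4.96 in EB day 3, with EB day 3 array 2 within the range of EB day 4 (adjusted p = 0.268). Of 15 definitive endoderm genes limma called 1, Otx2, which is also an epiblast gene and fell, and at an unadjusted p under 0.05 it gave 2 higher and 2 lower. The list's median was 0.12, and the definitive endoderm factors Foxa2 (5.15 and 4.68 in EB day 4, against 5.50 and 5.15 in EB day 3), Sox17 (3.70 and 3.43 in EB day 4, against 2.76 and 3.68 in EB day 3) and Cer1 (3.21 and 2.31 in EB day 4, against 2.65 and 3.22 in EB day 3) were not called (adjusted p = 0.727, 0.696 and 0.871). A p that misses the threshold does not show that these levels were equal: the standard errors of these 3 changes were 0.68, 0.52 and 0.58.

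Most pluripotency genes on the list fell. Of 28 tested core and naive pluripotency genes, 17 were called lower and 1 higher, against 8.87% called lower among all genes, with a median of -1.89. The nuclear receptor Esrrb was at -3.97 and -2.01 in EB day 4, against 0.90 and -0.02 in EB day 3. The chromatin-associated factor Utf1 was at -1.94 and -1.34 in EB day 4, against 2.48 and 1.06 in EB day 3. Nanog was at -0.27 and -0.57 in EB day 4, against 2.16 and 1.40 in EB day 3. All EB day 4 arrays lay below all EB day 3 arrays for these genes. Esrrb fell by 3.43 ± 0.60, Utf1 by 3.42 ± 0.55 and Nanog by 2.20 ± 0.37 (adjusted p = 0.0101, 0.00728 and 0.00882). Dppa3, Nr0b1, Gdf3 and the threonine-metabolising enzyme Tdh fell by 2.91 to 3.24, and Zfp42 (Rex1) fell by 2.04 with 2 of 2 probes called. Pou5f1 (Oct4) was at 2.24 and 1.64 in EB day 4, against 2.83 and 2.48 in EB day 3, lower in both EB day 4 arrays but not called (-0.71 ± 0.34, adjusted p = 0.197), and Sall4 (-0.25), Lin28a (-0.42) and Klf4 (0.80) were not called either. The member that rose was Tbx3, which is also a gene of lateral plate mesoderm. Of the 18 calls, 8 were kept without EB day 4 array 1, 12 without EB day 4 array 2, 2 without EB day 3 array 1 and 16 without EB day 3 array 2. In 23 of the 28 genes the EB day 4 mean was below all the other 5 group means, as it was in 33.1% of all genes.

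**Figure D3:**
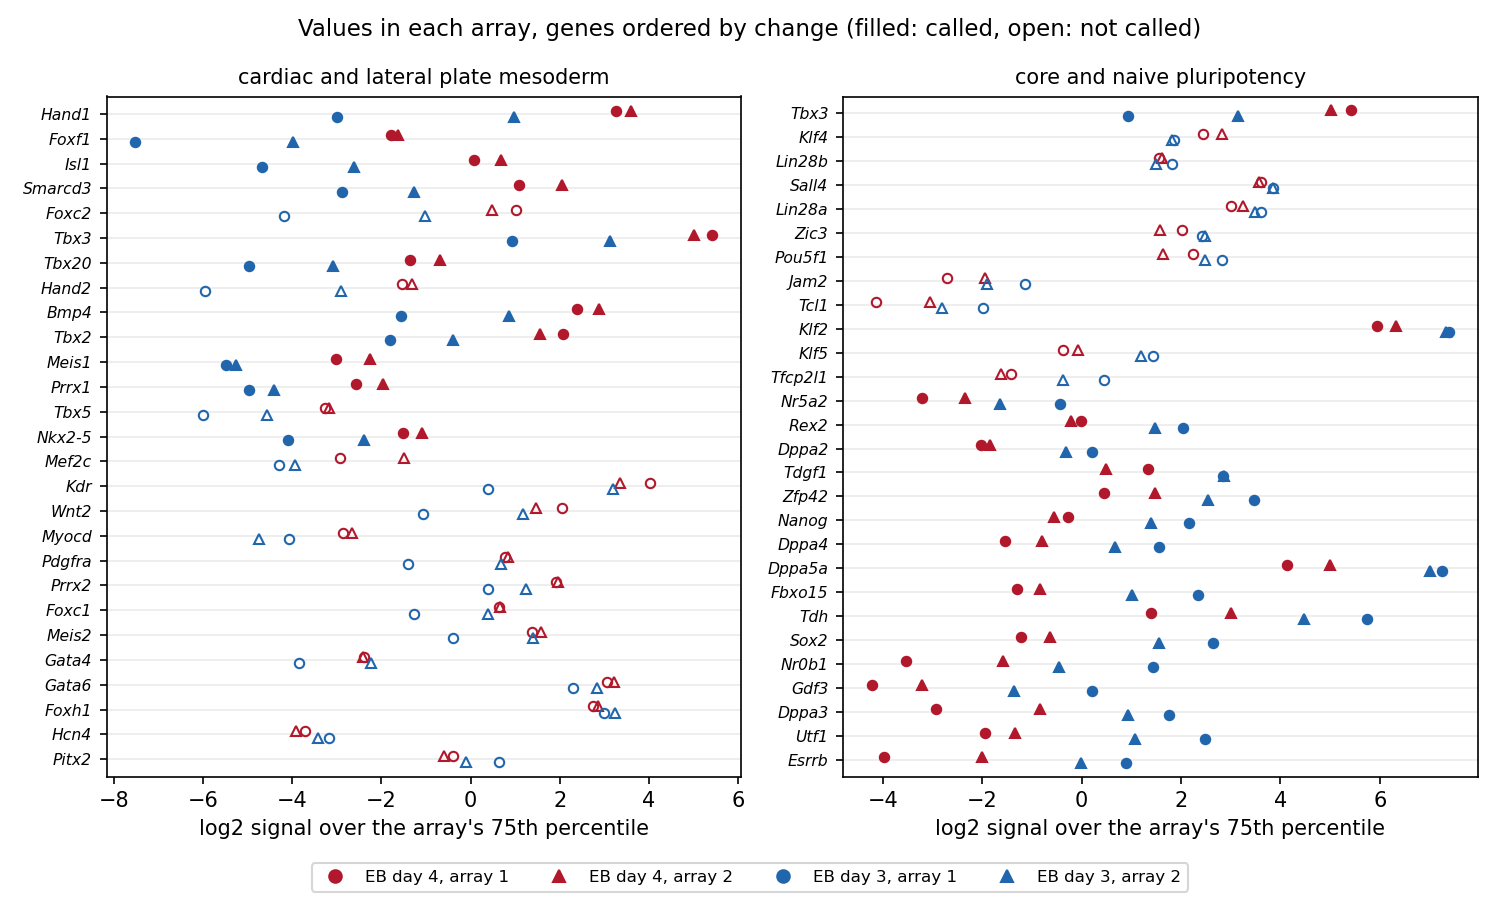
Log2 signal relative to the array's 75th percentile (horizontal axis) in the 4 arrays for every tested gene of 2 lists, ordered by change, with filled symbols for called genes. The EB day 3 arrays of Hand1 stand at -3.00 and 0.96, further apart than the EB day 4 arrays at 3.27 and 3.60.

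Genes of the formative and primed epiblast were also called lower. Of 18 tested, 10 were called lower, with a median of -1.60, and limma gave none higher even at an unadjusted p under 0.05. Over all genes 8.87% were called lower and 3.90% higher. Otx2, a homeobox gene of the epiblast, was at 0.88 and 0.40 in EB day 4, against 2.69 and 2.29 in EB day 3. The zinc finger gene Zic2 was at -1.80 and -2.11 in EB day 4, against 0.98 and 0.54 in EB day 3. The arrays of a stage lay close together for both, and the falls of 1.85 ± 0.28 and 2.72 ± 0.29 had adjusted p-values of 0.00603 and 0.00221. Foxd3 fell by 3.11, the POU factor Pou3f1 (Oct6) by 2.35 and the DNA methyltransferase cofactor Dnmt3l by 1.57, and Zic5, a relative of Zic2, was dim in EB day 4 and at least 3.46-fold lower. Fgf5, the classic primed epiblast gene, was at 3.03 and 2.47 in EB day 4, against 5.11 and 4.33 in EB day 3 and missed the threshold (adjusted p = 0.0541), as did the de novo methyltransferase Dnmt3b (4.46 and 4.03 in EB day 4, against 6.54 and 5.76 in EB day 3, adjusted p = 0.0519). With normexp both were called lower (-1.92 for Fgf5 and -2.06 for Dnmt3b, adjusted p = 0.0195 and 0.0232). Dnmt3b was also called lower with quantile normalization and the authors' values (-1.78 and -1.79), where Fgf5 was not. FGF signalling genes gave 2 called higher and 4 lower of 24: the receptor Fgfr2 was at -0.04 and 0.83 in EB day 4, against -2.51 and -3.05 in EB day 3 (2 of 2 probes called, adjusted p = 0.00233) and the ligand Fgf3 rose by 2.07 ± 0.57, while the feedback genes Spry4, Etv5 and Spry2 fell by 1.71, 1.43 and 1.37, each by 2 of 2 probes, and the ligand Fgf17 fell by 0.99. With normexp the Spry4 and Etv5 calls were lost (-0.98 and -0.80), and that of Spry4 also with quantile normalization and with the authors' values (-1.64 in both). Of 17 germline genes 5 were called lower, with a median of -1.19. They were Dppa3, which is also on the pluripotency list, the helicase Ddx4 (Vasa), the piRNA factor Mael, Tex19.1 and the synaptonemal complex gene Sycp3, which fell by 2.29 to 3.24. Of the 10 epiblast calls, 4 were kept without EB day 4 array 1, 3 without EB day 4 array 2, 1 without EB day 3 array 1 and 9 without EB day 3 array 2.

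Some mesenchymal and matrix genes rose. Of 27 genes of the epithelial to mesenchymal transition 5 were called higher and 3 lower, against 3.90% and 8.87% of all genes, with a median of 0.86. The zinc finger repressor Snai2 was at 1.09 and 3.72 in EB day 4, against -2.36 and -1.54 in EB day 3. Snai1, the related repressor of the streak stage, was at 1.92 and 1.05 in EB day 4, against 1.40 and 2.58 in EB day 3. Snai2 did not overlap between the stages and changed by 4.35 ± 0.79 (adjusted p = 0.011), whereas Snai1 overlapped and was not called (adjusted p = 0.418). Twist2 was at -0.71 and 0.87 in EB day 4, against -3.72 and -2.32 in EB day 3 and rose (adjusted p = 0.0314), Zeb1 changed by 2.12 ± 0.50 and the PDGF receptor Pdgfrb by 1.86 ± 0.44. The 3 genes called lower were all epithelial: E-cadherin (Cdh1) was at 3.61 and 3.61 in EB day 4, against 4.94 and 4.27 in EB day 3 and fell by 1.00, the epithelial splicing factor Esrp1 fell by 1.13 and the transcription factor Grhl2 by 1.16. Each of these 3 calls was also lost under another correction, normalization or probe rule: Cdh1 with quantile normalization and the authors' values (-0.91 in both), Esrp1 with normexp (-0.67) and Grhl2 with the mean of its probes (-1.08). Twist1 (0.92), N-cadherin (Cdh2, 1.08) and vimentin (Vim, 1.03) were not called. Of 36 laminins and other matrix genes 7 were called higher and 4 lower, with a median of 0.69. Laminin alpha 4 (Lama4) rose by 2.34 ± 0.42 with 3 of 3 probes called, the hyaluronan linker Hapln1 by 2.99 ± 0.55 and fibrillin 1 (Fbn1) by 2.15 ± 0.57, both with 2 of 2 probes called, and fibrillin 2 (Fbn2) by 2.21 ± 0.42. The Fbn1 call was lost in 6 of 18 alternative settings. Among these were the fit of the 4 EB day 4 and EB day 3 arrays alone and every fit with 1 of these arrays left out. In the fits with 1 array left out its change ran from 1.61 to 2.70. The collagen receptor subunit Itga1 and tenascin C (Tnc) were dim in EB day 3 and at least 6.85-fold and at least 4.34-fold higher, and the basement membrane nidogen Nid2 fell by 1.26. The bounds hold for the main processing: over the alternative settings the smallest change of Itga1 was 0.95. The Tnc call was lost with normexp, where its change was far smaller (0.77, adjusted p = 0.146). It was also lost with quantile normalization (2.28) and with the authors' values (2.29). Thrombospondin 2 (Thbs2) was at least 4.67-fold lower and dim in EB day 4, but with normexp it changed by -0.30 (adjusted p = 0.44) and was not called. Of the 8 epithelial to mesenchymal calls, 2 were kept without EB day 4 array 1, 1 without EB day 4 array 2, 0 without EB day 3 array 1 (all 8 at an unadjusted p under 0.05 by limma) and 6 without EB day 3 array 2.

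Of 18 retinoic acid genes 2 were called higher and 3 lower, against 3.90% and 8.87% of all genes, with a median of -0.0375. Aldh1a2, the enzyme that makes retinoic acid in early mesoderm, was at 0.07 and 0.53 in EB day 4, against -3.66 and -2.55 in EB day 3. It changed by 3.41 ± 0.36 (adjusted p = 0.00203), the retinoid-binding Crabp1 rose by 2.14 ± 0.54, and Dhrs3, which turns retinaldehyde back into retinol, fell by 2.05 with 2 of 2 probes called. The retinoic acid receptor Rarg fell by 1.27, with 3 of 4 probes called. Stra6, a receptor for retinol uptake, fell by 1.17. Both calls were lost with normexp (-0.63 and -0.76). Among Wnt genes 1 of 34 was called higher, the Wnt inhibitor Apcdd1 at 4.63 and 4.61 in EB day 4, against 1.09 and 2.40 in EB day 3 (2.87 ± 0.38, 2 of 2 probes), and 2 lower, the secreted Sfrp4 (fell by 1.71) and the receptor Fzd8 (fell by 0.77, 1 of 2 probes called), with a median of -0.01. Of 19 Notch genes 1 was called higher, the target Hey2 (3.27 ± 0.72), and 1 lower, the ligand Jag2, which fell by 1.90. Shares called higher and lower lay near or under those of all genes for Notch (5.26% and 5.26%) and Wnt genes (2.94% and 5.88%). Of 33 guidance and ephrin genes 4 were called higher (12.1%) and 2 lower (6.06%): the receptors Epha2 and Epha1 fell by 1.92 and 1.91. Of 26 imprinted genes 5 were called higher, among them Grb10 (1.79 ± 0.37), Igf2r (1.38 ± 0.32) and Slc38a4 (1.20 ± 0.25), and 1 lower (Snrpn, which fell by 1.71 with 2 of 2 probes called), with a median of 0.55. The growth factor Igf2 was at 5.81 and 7.11 in EB day 4, against 1.80 and 4.10 in EB day 3, with 2 of 2 probes called (3.51 ± 0.70, adjusted p = 0.0155), and EB day 3 array 2 lay closer to EB day 4 than array 1. Its neighbour H19 was at 1.78 and 2.79 in EB day 4, against 1.62 and 1.76 in EB day 3, and was not called (adjusted p = 0.403). Igf2 was not called without EB day 4 array 2 or without EB day 3 array 1.

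Some blood genes rose, with unequal levels in the 2 EB day 4 arrays. Of 31 tested, 5 were called higher and 1 lower, against 3.90% and 8.87% of all genes, with a median of 0.58. Tal1, the bHLH factor that specifies blood, was at 0.49 and 1.56 in EB day 4, against -1.20 and -0.79 in EB day 3. It changed by 2.01 ± 0.48 (adjusted p = 0.0286). Hbb-bh1, a globin of primitive red cells, was at -0.64 and 2.50 in EB day 4, against -2.49 and -2.36 in EB day 3. Gfi1b, a repressor of the erythroid lineage, was at -2.18 and -0.10 in EB day 4, against -3.80 and -3.23 in EB day 3. In both, EB day 4 array 2 stood well above array 1. Hbb-bh1 changed by 3.36 ± 0.87 (adjusted p = 0.0365), called without EB day 4 array 1 alone among the 4 omissions. Gata1, the GATA factor of red cells, changed by 1.35 ± 0.39 and missed the threshold (adjusted p = 0.0537), and the blood cofactor Lmo2 (0.66, adjusted p = 0.324) was not called. Gata1 was called higher with normexp (0.90, adjusted p = 0.0289), but not with quantile normalization or the authors' values. Etv2, the ETS factor upstream of blood and endothelium, was at 3.00 and 1.62 in EB day 4, against 1.69 and 2.47 in EB day 3, overlapping and not called (adjusted p = 0.831), and Plvap, a gene of endothelial openings, fell by 1.66. Of the 6 calls, 4 were kept without EB day 4 array 1, 0 without EB day 4 array 2, 0 without EB day 3 array 1 and 2 without EB day 3 array 2. In the omissions that left 0, limma gave all 6 an unadjusted p under 0.05.

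Markers of cells that embryoid bodies or the culture could also hold were read beside these groups. Over all genes 3.90% were called higher and 8.87% lower. Of 26 visceral and parietal endoderm genes 3 were called higher (Ihh, Sox7 and Apom) and 2 lower (Trf and Stra6), with a median of 0.73. Their summed signal over the 75th percentile was 133 and 200 in EB day 4, against 82.7 and 98.8 in EB day 3. Afp, a secreted protein of visceral endoderm, was at -3.89 and -1.03 in EB day 4, against -5.98 and -4.37 in EB day 3, and was not called (adjusted p = 0.123). Of 22 paraxial and intermediate mesoderm genes 2 were called higher, Aldh1a2 and Eya1, and 1 lower, Wt1, which was dim in EB day 4 and at least 5.16-fold lower there, but with normexp changed by -0.57 (adjusted p = 0.38) and was not called. Msgn1 (-2.74 and -2.57 in EB day 4, against -5.05 and -3.64 in EB day 3) and Tbx6 (2.70 and 1.85 in EB day 4, against -0.11 and 2.21 in EB day 3), factors of presomitic mesoderm, were not called, nor was the somite gene Meox1 (adjusted p = 0.814), which was dim in EB day 4 and detected on 1 of 2 EB day 3 arrays. Of 22 neural and neural crest genes 2 were called higher (Snai2 and Ncam1) and 3 lower (Foxd3, Sox2 and En2), and the neural plate gene Sox1 was dim in both stages. Pax6, a neural and eye factor, was dim in EB day 4 by both of its probes and was not called (adjusted p = 0.0581). It was called lower with quantile normalization (-2.63, adjusted p = 0.01) and with the authors' values (-2.62, adjusted p = 0.0103), but not with normexp. Of 17 genes of surface ectoderm, amnion and trophoblast 1 was called higher, Hand1, which is also on the lateral plate list, and 2 lower, the keratins Krt14 and Krt5 (fell by 1.28 and 0.94), with a median of -0.27. The sum of this list was 316 and 391 in EB day 4, against 146 and 259 in EB day 3, and the keratins Krt18 and Krt8 on it were not called (adjusted p = 0.328 and 0.223). Of 17 genes of feeder fibroblasts, which are often used to grow stem cells, 1 was called higher (Pdgfrb) and 2 lower (Mmp3 and Timp1), and the sum was 17.4 and 24.1 in EB day 4, against 14.8 and 13.8 in EB day 3. The part of these cells in the changes above was not tested.

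Genes of growth and metabolism were set beside the 3.90% called higher and 8.87% called lower over all genes. Of 26 sterol and fatty acid synthesis genes 0 were called by limma and 1 had an unadjusted p under 0.05, with a median of 0.07. Of 38 cell cycle and replication genes 1 was called higher, the imprinted inhibitor Cdkn1c (3.91 and 4.03 in EB day 4, against 1.91 and 2.60 in EB day 3, 1.71 ± 0.30), and 2 lower, Ccng1 and Top2a, with a median of -0.30. Of 30 glycolysis and hypoxia genes 4 were called lower (13.3%): the kinase Pdk1 fell by 1.95, enolase 1 (Eno1) by 1.26, the carbonic anhydrase Car9 by 1.04 and Higd1a by 0.93. The Car9 call was lost with normexp (-0.14), and those of Pdk1 (-1.33) and Higd1a (-0.26) when a gene's kept probes were averaged. Of 26 chromatin and DNA methylation genes 1 was called higher and 4 lower (15.4%), among them the Polycomb genes Phc1 and Cbx6, which fell by 1.13 and 0.91. Among the enzymes that oxidise methylcytosine, Tet3 was at 0.43 and 1.23 in EB day 4, against -1.39 and -1.17 in EB day 3 and rose by 2.11 ± 0.39, while Tet1 was at -1.48 and -1.32 in EB day 4, against -0.41 and -0.45 in EB day 3 and fell by 0.97.

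Among the genes called by 2 or more agreeing probes, the largest rises outside the groups above were in the RNA-binding Rbms3 and the phosphatase regulator Ppp1r17, which were dim in EB day 3 and at least 12.6-fold and at least 5.94-fold higher, the kinesin Kif12 (3.79 ± 0.49), Ripor3 (3.66 ± 0.50), the G protein regulator Rgs5 (3.57 ± 0.87), the dipeptidyl peptidase Dpp4 (3.28 ± 0.54) and the giant scaffold protein Ahnak, for which 3 of 5 probes were called (3.18 ± 0.87). Kif12 was at -1.33 and 0.04 in EB day 4, against -5.02 and -3.84 in EB day 3 and Ripor3 at -1.21 and -0.70 in EB day 4, against -5.09 and -4.13 in EB day 3, and both stayed called without any 1 array. The largest falls were in the X-linked neuronal gene Nexmif, at least 9.39-fold and dim in EB day 4, in the embryonic myosin Myh3, at least 7.95-fold with both probes called, in Pllp and Cysltr1, at least 4.35-fold and at least 3.53-fold and likewise dim in EB day 4, in Enpp3 (fell by 3.17) and in the kinase Pim2 (fell by 3.03). Pim2 was at 2.62 and 2.25 in EB day 4, against 5.90 and 5.02 in EB day 3, and its 3 probes gave falls of 3.26, 3.07 and 3.03. Bmerb1, the neurotrophin receptor Ntrk2, Mageb16, the piRNA factor Tdrd12 and Galnt6 fell by 2.64 to 2.94. Without any 1 array Pim2, Bmerb1, Mageb16 and Galnt6 stayed called, whereas Ahnak was called in none of the 4 omissions.

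The calls named here depended on the processing to differing degrees. Of 160 named genes that were called, 134 kept the call with normexp, 156 with quantile normalization and with the authors' values, and 145 when a gene's kept probes were averaged. The fit of the 3 EB groups alone kept 135 of these calls. That of the 4 EB day 4 and EB day 3 arrays alone, with 2 residual degrees of freedom, kept only 32. Besides the genes given above, normexp ended the calls of Cysltr1 (-0.16), En2 (-0.45), Fzd8 (-0.38), Mael (-1.17), Mmp3 (-0.89), Myh3 (-1.20), Pllp (-0.16), Sfrp4 (-0.51), Trf (-0.11) and Zic5 (-0.17). It turned the direction of Fgf17 (0.21) and Krt5 (0.0413), which were then not called either. Among named genes not called in the main fit, normexp called Dnmt3b (-2.06), Fgf5 (-1.92) and Lin28a (-0.71) lower. Those it called higher were Gata1 (0.90), Hand2 (1.45), Hoxb1 (1.39), Msgn1 (0.92), Smad3 (1.23) and Tbx5 (1.01). With averaged probes the call of Esrrb was lost (-1.50), as were those of Acvr2a, Arid5b, Ccng1, Defa3, Fzd8, Higd1a, Kif26b, Krt5, Ncam1, Nkx1-2, Pdk1, Synpo and Timp1.

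Genes read by 1 probe included the largest rises of all. The netrin receptor Unc5c was at -0.69 and 0.89 in EB day 4, against -6.97 and -3.87 in EB day 3. It changed by 5.52 ± 1.39 (adjusted p = 0.0334), although it was called in 1 of the 4 omissions. Plac1, a placental and X-linked gene, was at -0.20 and 0.89 in EB day 4, against -5.92 and -3.78 in EB day 3. The noncoding gene C430049B03Rik was at -1.02 and 0.08 in EB day 4, against -6.95 and -4.36 in EB day 3. The stages did not overlap for these genes, and in each of them array 2 was the higher one within each stage. Their changes were 5.20 ± 0.81 and 5.19 ± 0.88 (adjusted p = 0.00678 and 0.009). The 2 probes lie next to each other on the minus strand of chromosome X in build mm9, that of C430049B03Rik at chrX:50408280-50408339 and that of Plac1 at chrX:50423681-50423740. RefSeq (GRCm38.p6) lists C430049B03Rik as a long noncoding RNA with the microRNA names mir-322, mir-351 and mir-503 among its synonyms. Within 600 kb of the Plac1 probe, a window chosen after these values were seen, 9 genes were tested, and besides these 2 the gene Hprt was called, which fell by 0.99.

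The 2 arrays of a stage differed from each other in whole gene groups. Over all genes, array 2 exceeded array 1 in 45.0% of genes in EB day 3, yet in cardiac and lateral plate mesoderm it did so in 24 of 27 genes, by a median of 1.66, and in core and naive pluripotency in 3 of 28, with a median of -0.77. Kdr was at 4.03 and 3.36 in EB day 4, against 0.40 and 3.20 in EB day 3, so that EB day 3 array 2 lay nearer to the EB day 4 arrays than to array 1. Genes of glycolysis and hypoxia were also higher in EB day 3 array 2, in 27 of 30 genes. In EB day 4 the difference took another shape. Over all genes, array 2 was above array 1 in 8996 of 17523 genes in EB day 4, with a median difference of 0.009. Array 2 was below array 1 in 20 of 21 primitive streak genes, by a median of -0.73, and above it in 25 of 31 blood and endothelial genes, by 0.77. Array 2 was also below array 1 in 26 of 26 sterol and fatty acid synthesis genes (median -0.45) and above it in 20 of 21 genes of the integrated stress response (median 0.60). These are differences between single arrays, with no test, and clone, experiment and operator cannot be told apart in them.

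**Figure D4:**
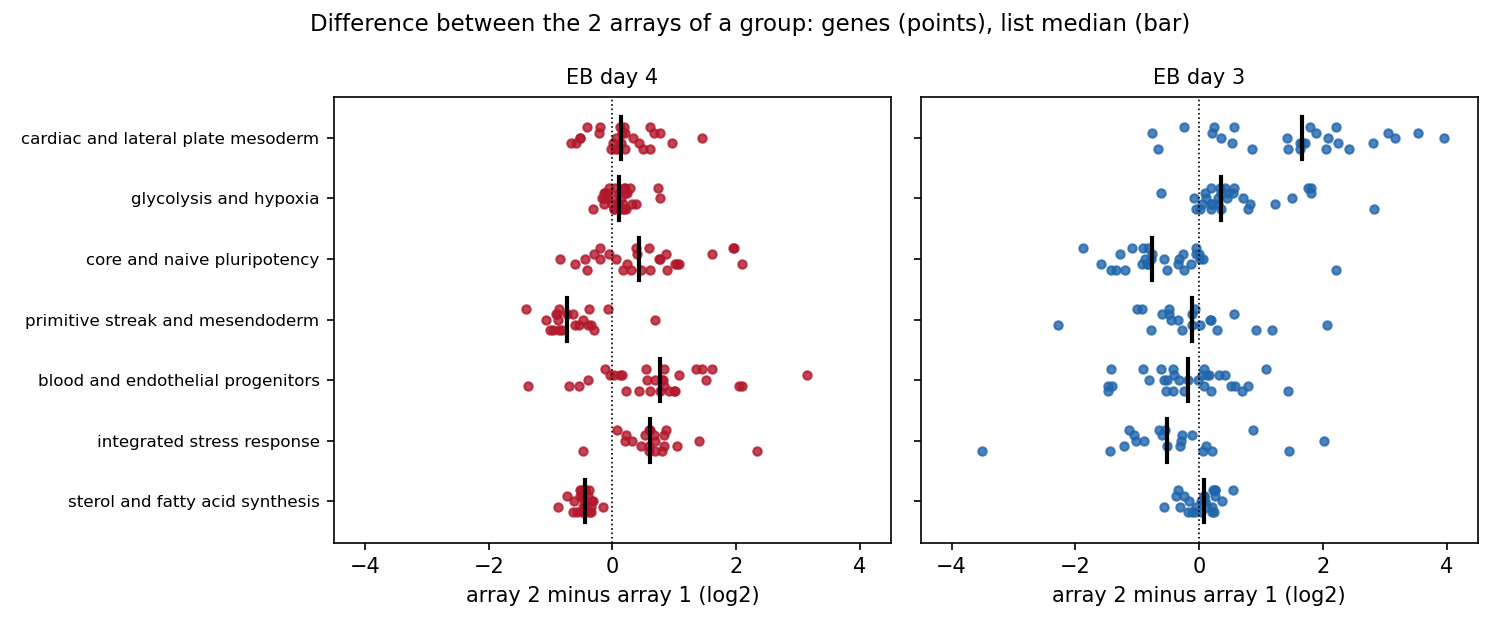
Difference between array 2 and array 1 of EB day 4 and of EB day 3 (log2, horizontal axis) for each gene of 7 lists, with the list median as a bar. Cardiac genes lie mostly to the right in EB day 3 (24 of 27 genes), and streak genes lie to the left in EB day 4 (20 of 21).

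The largest falls of all were read by probes that behaved unlike their genes' other probes or unlike the rest of the series. Cdk5r2, a neuronal activator of a cyclin-dependent kinase, was at -0.21 and -0.07 in EB day 4, against 5.70 and 5.80 in EB day 3. Mchr1, a melanin-concentrating hormone receptor, was at -3.29 and -1.97 in EB day 4, against 2.57 and 2.62 in EB day 3. The changes of -5.89 ± 0.24 and -5.23 ± 0.41 (adjusted p = 1.79e-05 and 0.000646) were larger in size than that of every tested pluripotency gene, but the other 5 group means of each gene lay within 1 log2 unit of each other. The Arid5b probe called lower was at 0.99 and 0.59 in EB day 4, against 5.21 and 5.43 in EB day 3, while the 3 other probes of that gene changed by 0.25, 1.38 and 1.88, none called. Of 4 Vps13a probes 1 fell by 4.43, with 73.3% G and C, and the other 3 changed by -0.50, -0.28 and -0.10. Of 2 Synpo probes 1 fell by 3.90 and the other changed by 1.82 and was not called. The probes of Cdk5r2, Mchr1 and Arid5b are shown to compare their base composition, 5′ to 3′, with runs of at least 4 G or C in capitals. They come from the arrays' files and lie at chr1:74902602-74902661 (plus strand), chr15:81068324-81068383 (plus strand), and chr10:67558341-67558358 and chr10:67648966-67705772 (minus strand, mm9) as the files give them, where the Arid5b spans are not of the probes' length, and the files also hold the second probe of Syn1, a synaptic vesicle gene, at chrX:20497763-20497822 (minus strand).
Cdk5r2 A_51_P189803: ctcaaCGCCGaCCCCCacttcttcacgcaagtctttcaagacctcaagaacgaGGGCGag
Mchr1 A_51_P376299: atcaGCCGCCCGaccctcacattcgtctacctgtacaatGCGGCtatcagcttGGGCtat
Arid5b A_51_P391524: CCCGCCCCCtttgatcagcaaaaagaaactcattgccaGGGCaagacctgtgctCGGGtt
Arid5b A_52_P367621: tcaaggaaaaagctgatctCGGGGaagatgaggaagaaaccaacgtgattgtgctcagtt
Syn1 A_52_P482360: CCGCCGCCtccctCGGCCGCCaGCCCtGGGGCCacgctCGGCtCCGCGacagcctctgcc
The first 3 hold 56.7%, 55% and 55% G and C, the second Arid5b probe, which was not called, holds 45%, and the Syn1 probe holds 81.7%. Syn1 fell by 2.67 in this probe, and its other probe, with 43.3% G and C, fell by 1.56.

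Base composition moved with the calls over all genes. Of 130 genes read by a probe with more than 60% G and C, 47 were called lower (36.2%) and 4 higher (3.08%), with a median of -0.59, against 6.72% lower and 4.89% higher among 3170 genes with up to 35%. Among genes whose other 5 group means lay within 1 log2 unit, 49 were called lower by at least 2 log2 units in EB day 4, of which 9 had a probe above 60% G and C and 3 were called by 2 probes, and 23 were called higher by at least 2. The part of probe composition, labelling or scanning in these calls was not tested. Among the 13921 genes well above background on all 4 arrays, 504 of the calls were higher and 966 lower. Of the 11 lateral plate calls 1 had a probe above 60% G and C, and the probes of Isl1, Sox2, Colec11 and Nodal hold 35% or 45%. Across probes of 1 gene, 32 genes had probes called in opposite directions, such as the adhesion molecule Ncam1 (3 higher and 1 lower of 6) and the kinesin Kif26b (2.56 and -1.48), and likewise Slc4a7 (2.89 and -0.96), Defa3 (2.08 and -1.32) and Ssbp2 (2.18 and -1.22).

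**Figure D5:**
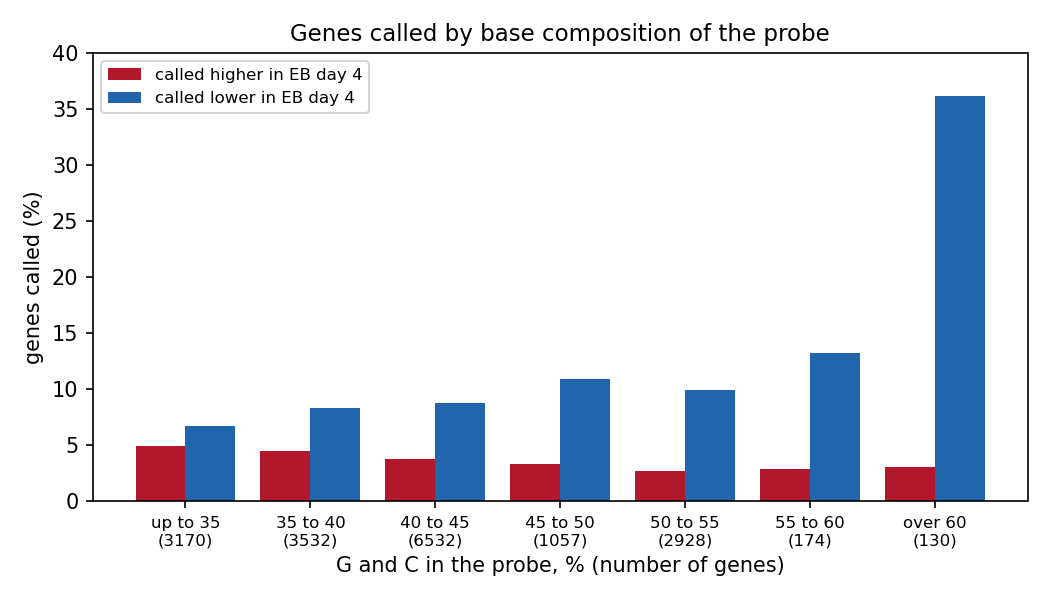
Percentage of genes called higher and called lower in EB day 4 (vertical axis, bars from 0) by the share of G and C in the probe, with the number of genes in brackets. The share called lower is 6.72% in the lowest bin and 36.2% in the highest, and the share called higher is 4.89% and 3.08%.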

How the data were processed

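Total RNA of 12 samples was labelled with Cy3, and each was hybridised to its own whole mouse genome array, per the labels' protocols. Signals are scanner intensity, from which Feature Extraction had subtracted the background and a spatial trend, per the file headers, which give version 10.7.1.1 for EB day 4 and 10.7.3.1 for EB day 3, whereas the submitters' processing notes give Agilent Feature Extraction 9.5.1.1. The authors' deposited values are also linear intensity, equal in distribution over the arrays, and served as an alternative.

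From these signals, log2 values minus the array's 75th percentile over 43379 spots were computed, leaving out flagged outlier spots. Probes well above background on both arrays of 1 or more groups were kept (26180), and a gene was read by its kept probe with the highest mean. Of 41174 probes, 26995 were named by RefSeq accession, 6422 by name and 7725 by the file alone. Positions are mm9, from the files. The number of arrays limits precision, and signal over background limits it for dim genes.

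With limma 3.58.1 in R 4.3.3 (package data.table, version 1.17.8), 1 model with 6 group means was fitted to the 12 arrays (6 residual and 3.19 prior degrees of freedom) and gave the test of EB day 4 minus EB day 3, two-sided. It was tested on simulated data. Bounds replace changes where 1 stage was dim, and no fold is given where both were. A bound holds for the main processing only, and some alternatives gave smaller changes. Plots used matplotlib 3.10.9 and Python 3.11.15.

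Genes were named by a rule: 4 markers, the largest changes with and without 2 agreeing probes, up to 8 called members per list, a panel of developmental genes, and genes with discordant probes. Further list members, the genes around Plac1 and the array-by-array contrasts were picked after their values were seen. The markers, lists and alternatives were chosen with earlier results of these data known. The alternatives were normexp (offset 50), quantile normalization, the authors' values, other filters on dim probes, averaging a gene's kept probes, a replicate block, fits of fewer groups, a trended prior, and each array left out. Subsets by probe composition, by signal over background and by change elsewhere were added after seeing the data.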

Additional observations from a re-analysis of the deposited data

How the results depend on the processing

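Of 2237 calls (683 higher, 1554 lower, 245 by 2 agreeing probes), quantile normalization, the authors' values, the strict filter, the filter on EB day 4 or EB day 3, the mean of probes, the trended prior, leaving out probes above 50% G and C and keeping genes well above background on all 4 arrays gave counts within 1.5 times of these (1609 to 2625 called). With normexp 1694 genes were called higher and 441 by 2 probes. With no filter on dim probes 7590 were called, 5600 higher and 819 by 2 probes, as 27676 genes were then tested. In the fit of the 4 arrays alone 501 were called, 140 higher, 361 lower and 0 by 2 probes (6059 genes at an unadjusted p under 0.05 by limma), with 2 residual degrees of freedom, and Colec11 (5.45), Isl1 (4.03), Nodal (-2.25) and Sox2 (-3.04) were not called (adjusted p = 0.0509 to 0.0595). With the 3 EB groups alone 1026 were called higher. Without genes flat in the other 5 groups 886 were called, 341 higher, 545 lower and 111 by 2 probes, out of 8351 tested. Leaving out 1 array gave 345 to 1616 calls, 94 to 506 higher, 251 to 1110 lower and 10 to 216 by 2 probes; the lone array of its group was then assumed to vary like the others. The share called higher was 58.5% with normexp, 73.8% with no filter and 19.5% without EB day 4 array 2, against 30.5%. With the replicate block 2108 genes were called, and Ahnak, Fbn1, Fgf17, Hbb-bh1, Hoxb2, Krt5, Nppa, Phc1, Tbx3, Tnc, Tnnc1 and Top2a were not; the clone numbers were not treated as pairing, since deviations of same-numbered EB day 4 and EB day 3 arrays correlated at -0.004. Slide as a random block could not be estimated, as each group lies on 1 slide.

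Directions reversed for Arid5b (0.25), Fzd8 (0.49) and Synpo (1.82) without probes above 50% G and C, where another probe represented the gene, for Smad2 (-0.0462), Fgf17 (0.21), Krt5 (0.0413) and Nppa (0.32) with normexp, for Defa3 (0.38), Slc4a7 (0.44) and Ssbp2 (0.17) with the mean of probes, for Meox1 with quantile normalization (-0.0605), the authors' values (-0.0645) and the mean of probes (-0.24), and, over the fits with 1 array left out, in uncalled genes: Cer1 (-0.62 to 0.28), Etv2 (-0.46 to 0.92), Gata4 (-0.18 to 1.44), Id1 (-0.15 to 0.40), Meox1 (-0.67 to 1.24), Mixl1 (-1.04 to 0.0337), Snai1 (-1.10 to 0.0787), Sox1 (-0.10 to 0.13), Sox17 (-0.11 to 0.80) and T (-0.87 to 0.0143). List medians moved by more than their spread between arrays with normexp for FGF genes (-0.33), chromatin (-0.0371), formative epiblast (-1.07), germline (-0.40), lectin complement (0.53), neural (0.14), contractile genes (0.29) and surface ectoderm (0.20), with the mean of probes for Hox genes (1.78), lectin complement (0.52) and contractile genes (0.11), and with quantile normalization and the authors' values for cell cycle (-0.16 in both) and chromatin genes (0.14 in both). The causes were not tested.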
